A study of Mus musculus with 10 samples.

Results

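The genes that license replication origins, unwind DNA and build the replication fork were followed in murine Mll-AF9 leukaemia cells after knockdown of Meis1, a homeodomain transcription factor. They were chosen by name, with earlier results of these data known. The 44 genes cover the origin recognition complex, the MCM helicase and its activators, and the replicative polymerases. They also cover the clamp and its loader and the histone supply to new DNA. Each was read in its brightest probe set, a group of short probes for one transcript, among those that carry a single gene symbol. In this way 43 of the 44 were measured among 18193 genes in all, and Chaf1a was not analysed here. The 43 probe sets had mean log2 levels between 5.67 and 12.67.

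The leukaemia cells carry the fusion of Mll with AF9 and were grown in IMDM with serum and interleukin 3. In 5 samples a lentivirus carried a hairpin RNA directed at Meis1 (shRNA), and in 5 it was the empty vector. All 10 samples were selected with puromycin and profiled at 48 h after transduction. The labels name a single leukaemia and 1 hairpin construct, so off-target effects of the hairpin cannot be told apart from those of the knockdown. The labels pair each shRNA sample with the control of the same number.

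Replication starts in 2 steps that are kept apart in the cell cycle. In G1 the origin recognition complex (ORC), Cdc6 and Cdt1 load the inactive MCM helicase onto DNA. In S phase the kinase Cdc7 with Dbf4, together with Cdc45, GINS and Mcm10, turns it into a moving helicase, behind which polymerases copy both strands. Most of these genes are transcribed late in G1 by E2F factors, and their transcripts are abundant in dividing cells. In bulk RNA, fewer cells in S phase and less RNA per cell cannot be told apart.

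Meis1 itself read 193, 221, 127, 142 and 140 in shRNA samples 1 to 5, against 396, 413, 297, 333 and 290 in control samples 1 to 5. The groups did not overlap, and the transcript was 2.13-fold lower with the shRNA (log2 change -1.09, SE 0.08, limma adjusted p = 0.000636). The mean of all Meis1 probe sets changed less, by -0.29 (adjusted p = 0.0460). Myeloid progenitor markers were bright, with mean log2 levels of 13.33 for Mpo, 12.80 for Ctsg and 12.42 for Prtn3, though Cd33, Csf1r and Fcgr3 were below 5. Kit, Elane and Ptprc were the 3 of these 12 markers that fell at a limma adjusted p under 0.05, against 2.98% of all genes, and 0 rose. Itgam (0.45), Spi1 (0.33), Fcgr3 (0.27), Cebpa (0.26) and Csf1r (0.18) had log2 changes above 0 without passing (adjusted p 0.128 to 0.486). Mpo, Ctsg, Prtn3 and Cd33 lay between -0.19 and -0.11 and did not pass. Omitting any pair ended the calls of Elane (adjusted p 0.0528 to 0.132) and Ptprc (0.0638 to 0.129), and in a fit without the pairing Kit (0.192), Elane (0.730) and Ptprc (0.0892) did not pass. Markers of erythroid and megakaryocytic cells (6 of 6) and of lymphoid cells (7 of 7) lay below a log2 level of 5, as did 6 of 7 stromal markers, all but Thy1. Their summed intensities were 42.4 to 49.6 with the shRNA and 37.0 to 56.3 in controls for the erythroid list, and 34.9 to 37.5 against 32.3 to 35.3 for the lymphoid list. The stromal list summed to 293 to 1198 with the shRNA and 394 to 1284 in controls, with 1 member, Pecam1, lower, a call that ended on omitting pair 1, 2, 3 or 4 (highest adjusted p 0.124) and without the pairing (0.508). Samples 1 and 2 of one group resembled samples 1 and 2 of the other. This was seen in deviations from the group mean, over genes with a mean log2 level above 5. The deviation of shRNA sample 1 correlated at 0.61 with that of control 2 and at -0.36 with that of control 3.

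The replication genes were lower with the Meis1 shRNA almost throughout. Of the 43 measured, 16 fell and 0 rose at a limma adjusted p under 0.05, and 27 did not pass. Among all genes tested, 2.98% fell and 1.08% rose. Bright genes are called more often, and among the 6721 with a mean log2 level above 5, which all 43 members exceed, 6.61% fell. The change was below 0 in 42 of the 43 members, and in 40 after a further quantile normalization, in which Orc2 and Orc5 turned to 0.01 and 0.05. It was below 0 in 49.0% of all genes and in 58.5% of the bright ones. The median log2 change was -0.38 in the members, 0.00 over all genes and -0.04 over bright genes. In 18 members every shRNA array lay below every control array, which held for 3.45% of all genes and for 523 of the 6721 bright ones.

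The size of the change differed between the 5 complexes that were set side by side. GINS had the lowest median log2 change, -0.72 over 4 subunits with 3 past the threshold. The clamp loader was at -0.41 (3 of 5), MCM2-7 at -0.38 (2 of 6) and the polymerases with primase at -0.34 (3 of 8). ORC was at -0.10, with 0 of 6 past the limma threshold and 2, Orc1 and Orc6, at an unadjusted p under 0.05. In pairs 1 to 5 the ORC median was -0.03, 0.02, -0.10, -0.28 and -0.17, while that of MCM2-7 was -0.32, -0.46, -0.36, -0.48 and -0.23. In the brightest probe sets ORC thus lay nearer 0 than MCM2-7 in each pair. The GINS medians were -0.78, -0.35, -0.62, -1.18 and -0.66, below those of MCM2-7 in pairs 1, 3, 4 and 5 but not in pair 2. The contrast with ORC depends on the probe sets. With the mean of all probe sets of each gene the ORC median was -0.24. The ORC subunits then ran from -0.42 (Orc1, limma adjusted p = 0.0485) to -0.01 (Orc5). In that fit the MCM2-7 subunits ran from -0.50 (Mcm4) to -0.25 (Mcm7) and the polymerases from -0.45 (Prim1) to -0.08 (Pola2). These differences between complexes are descriptions, and no test was made of them.

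**Figure D1:**
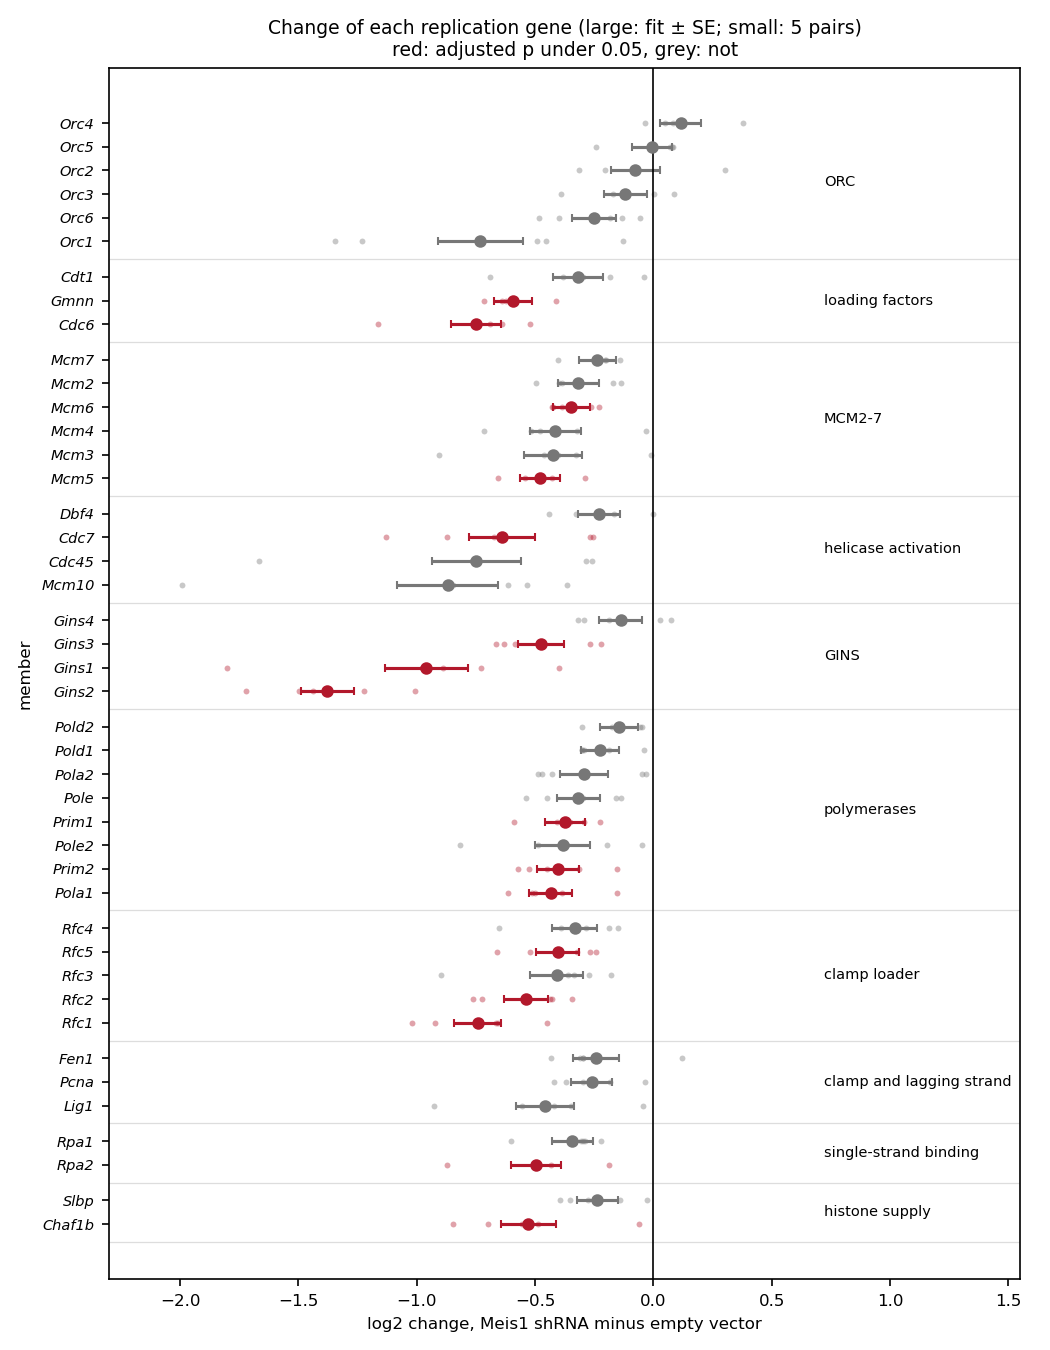
Log2 change of the 43 measured members, Meis1 shRNA minus empty vector, by complex; large points with bars are the fit ± SE, small points the 5 pair differences. Red members passed an adjusted p of 0.05, and Gins2 lies lowest at -1.38 while Orc4 alone lies above 0, at 0.12.

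**Figure D2:**
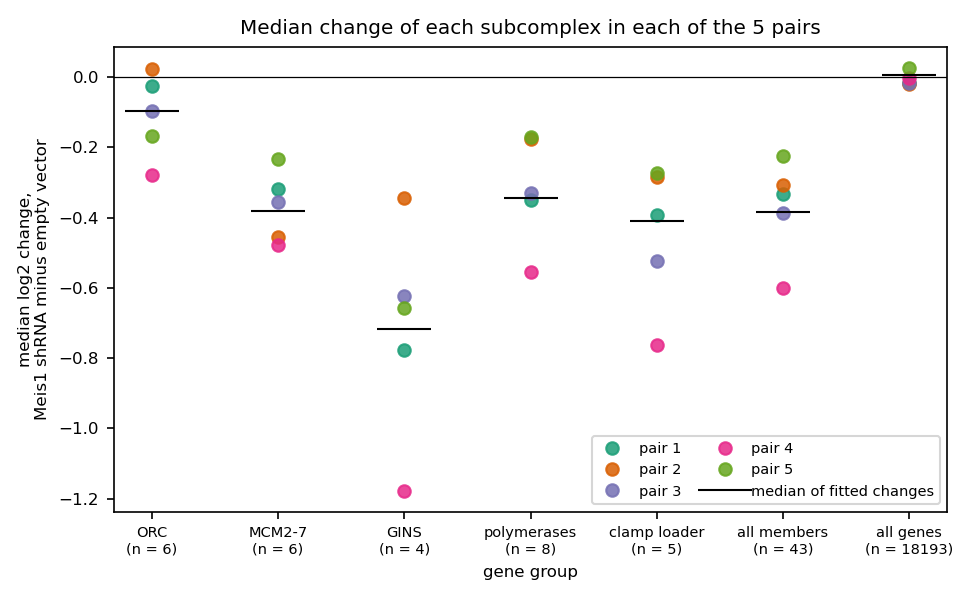
Median log2 change (shRNA minus control) of 5 complexes, of all 43 members and of all 18193 genes, in each of the 5 pairs; black bars are medians of the fitted changes. In these brightest probe sets ORC stays nearest 0 of the 5 complexes, GINS lies lowest in 4 of 5 pairs, and pair 4 is the lowest pair in each complex.

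The promoters of the members that fell most are shown because the transcripts moved together and the letters can be compared. Among members past the threshold, they are the 4 with the deepest falls that have an entry in RefSeq's promoter windows (GRCm38.p6, 250 bases before to 50 after the start). To these were added, after the motif search, 2 MCM genes past the threshold that hold an E2F match. Windows were searched on both strands for E2F words (TTTGGCGC, TTTGCCGC, TTTCGCGC and TTTCCCGC), CCAAT, the cell cycle element TTTGAA and the Meis core TGACAG, all of which stand in capitals, in either orientation. Cdc6 lies at chr11:98907901-98908200 on the plus strand, Rfc1 at chr5:65335590-65335889 on the minus strand, Cdc7 at chr5:106964072-106964371 on the plus strand and Chaf1b at chr16:93883651-93883950 on the plus strand. Mcm5 lies at chr8:75109259-75109558 on the plus strand and Mcm6 at chr1:128359656-128359955 on the minus strand. Each is printed 5′ to 3′ along its gene.
Cdc6: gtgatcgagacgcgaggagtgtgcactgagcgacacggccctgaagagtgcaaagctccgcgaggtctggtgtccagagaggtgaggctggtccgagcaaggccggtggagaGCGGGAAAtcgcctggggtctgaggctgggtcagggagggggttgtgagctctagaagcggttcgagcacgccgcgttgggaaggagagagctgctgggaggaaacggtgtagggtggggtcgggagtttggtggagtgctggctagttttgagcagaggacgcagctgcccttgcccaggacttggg
Rfc1: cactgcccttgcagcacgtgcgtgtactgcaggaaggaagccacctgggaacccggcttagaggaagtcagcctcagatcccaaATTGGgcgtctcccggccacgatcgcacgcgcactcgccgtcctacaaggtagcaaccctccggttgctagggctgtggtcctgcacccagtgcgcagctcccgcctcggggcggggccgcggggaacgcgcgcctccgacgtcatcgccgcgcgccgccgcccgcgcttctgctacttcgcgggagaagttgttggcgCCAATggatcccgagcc
Cdc7: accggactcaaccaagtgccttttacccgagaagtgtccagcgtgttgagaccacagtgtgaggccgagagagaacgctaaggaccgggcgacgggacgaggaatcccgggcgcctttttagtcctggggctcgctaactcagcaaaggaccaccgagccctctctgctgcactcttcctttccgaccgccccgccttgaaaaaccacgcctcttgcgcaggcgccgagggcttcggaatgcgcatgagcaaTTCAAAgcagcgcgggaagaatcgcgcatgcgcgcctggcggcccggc
Chaf1b: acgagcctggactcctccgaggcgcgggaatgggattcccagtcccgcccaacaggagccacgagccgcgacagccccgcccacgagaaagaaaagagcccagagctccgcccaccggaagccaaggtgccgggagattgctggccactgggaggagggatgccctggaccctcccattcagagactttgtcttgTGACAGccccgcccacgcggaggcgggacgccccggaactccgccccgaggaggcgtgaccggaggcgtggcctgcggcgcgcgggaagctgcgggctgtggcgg
Mcm5: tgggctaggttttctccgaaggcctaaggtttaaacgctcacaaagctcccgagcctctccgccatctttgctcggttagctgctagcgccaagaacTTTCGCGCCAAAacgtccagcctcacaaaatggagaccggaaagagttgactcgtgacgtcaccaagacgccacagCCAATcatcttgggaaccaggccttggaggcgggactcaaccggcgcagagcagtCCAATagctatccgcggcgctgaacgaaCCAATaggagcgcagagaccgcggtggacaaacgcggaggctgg
Mcm6: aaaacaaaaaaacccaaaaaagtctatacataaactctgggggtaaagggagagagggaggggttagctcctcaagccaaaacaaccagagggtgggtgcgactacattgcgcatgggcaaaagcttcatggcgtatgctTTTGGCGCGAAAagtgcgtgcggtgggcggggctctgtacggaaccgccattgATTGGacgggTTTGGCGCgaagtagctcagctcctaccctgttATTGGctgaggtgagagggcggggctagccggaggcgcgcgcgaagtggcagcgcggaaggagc

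In Cdc6 the capitals mark an E2F word on the opposite strand, at base -138 from the start. Rfc1 holds 2 CCAAT words, Cdc7 an element TTTGAA on the opposite strand and Chaf1b a Meis core at base -55. A further window of Cdc7, not printed, holds a Meis core at base -126 and TTTGAA on the opposite strand at base -237. Mcm5 holds 2 E2F words that overlap on opposite strands and 3 CCAAT words. Mcm6 holds 3 E2F words, 2 of them overlapping, and 2 CCAAT words. Windows were found for 35 of the 43 members, and 14 of the 35 (40%) held an E2F word in at least 1 window. The share was 3.81% of the 14452 genes tested that have a window, and 5.56% of the bright ones, with no match on base composition. An E2F word stood in 5 of 11 members that fell and in 9 of 24 that did not pass. CCAAT stood in 21 of 35 members and in 42.0% of all genes, TTTGAA in 7 of 35 and 15.7%, and the Meis core in 6 of 35 and 20.5%. A match of letters is not a bound site, and these windows do not cover distant elements.

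Of the origin recognition complex, which binds origins and recruits the helicase, no subunit passed. Orc1, an ATPase subunit, read 51.7, 46.8, 49.6, 33.1 and 36.4 in shRNA samples 1 to 5, against 70.9, 65.8, 54.3, 77.9 and 92.5 in controls 1 to 5. Every shRNA array lay below every control, but the gap was wide in pairs 4 and 5 and narrow in pair 3. The log2 change was -0.73 (SE 0.18, adjusted p = 0.0628). Orc5 read 415, 399, 365, 328 and 386 with the shRNA, against 393, 377, 347, 388 and 392 in controls. The groups overlapped throughout, with a change of -0.01 (SE 0.08, adjusted p = 0.983). Orc2, Orc3 and Orc4 lay between -0.12 and 0.12 (adjusted p 0.566 to 0.773), and Orc6, which takes part in loading and in cell division, was at -0.25 (adjusted p = 0.191).

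Of the loading factors, 2 of 3 fell. Cdc6, the ATPase that joins ORC to load the helicase, read 400, 330, 362, 289 and 349 with the shRNA, against 622, 551, 584, 649 and 500 in controls. Every shRNA array was lower than every control, by 1.68-fold on average (log2 change -0.75, SE 0.11, adjusted p = 0.00763). Gmnn encodes geminin, which binds Cdt1 and blocks a second loading in the same cycle. It read 647, 666, 562, 531 and 615 with the shRNA, against 971, 1025, 874, 871 and 819 in controls. Here too the groups did not overlap, with a change of -0.59 (SE 0.08, adjusted p = 0.00641). Both the loader and the inhibitor were thus lower. Cdt1, the partner of Cdc6, did not pass in its brightest probe set (-0.32, SE 0.10, adjusted p = 0.149), although its groups did not overlap. Cdc6 and Gmnn were called whichever pair was omitted.

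All 6 subunits of the MCM2-7 ring, the core of the helicase, had changes below 0 within a narrow range of -0.48 to -0.24, and each was lower in all 5 pairs. Mcm5 read 3480, 2974, 4211, 4052 and 4409 with the shRNA, against 4894, 4684, 5659, 5900 and 5384 in controls. The groups did not overlap, and samples 1 and 2 were the lowest of each group (-0.48, SE 0.08, adjusted p = 0.0188). Mcm6 was lower too, at -0.35 (SE 0.08, adjusted p = 0.0486), again with no overlap. Mcm7 read 3812, 3940, 3426, 3099 and 3338 with the shRNA, against 4396, 4340, 4037, 4097 and 3840 in controls. Only shRNA sample 2 reached into the range of the controls, and the change was the smallest of the ring, -0.24 (SE 0.08, adjusted p = 0.155). Mcm2, Mcm3 and Mcm4 were at -0.32, -0.42 and -0.41 (adjusted p 0.0751 to 0.109). Mcm5 was not called when pair 1, 2, 3 or 4 was omitted (highest adjusted p 0.087), nor Mcm6 when any of the 5 was (0.0596 to 0.175).

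Among the factors that activate the ring, Cdc7 alone of 4 fell. This kinase phosphorylates the MCM proteins, and it read 48.9, 31.4, 42.4, 34.7 and 52.7 with the shRNA, against 58.8, 57.4, 67.7, 75.9 and 62.9 in controls. The groups did not overlap (-0.64, SE 0.14, adjusted p = 0.0415), but omitting pair 1, 2, 3 or 4 ended the call (highest adjusted p 0.142). Its activating subunit Dbf4 was at -0.23 (adjusted p = 0.213). Mcm10, which joins the helicase to the polymerases, had a large and uneven change of -0.87 (SE 0.21, adjusted p = 0.0629). It read 149, 114, 125, 72.3 and 106 with the shRNA, against 192, 204, 191, 287 and 153 in controls, with the widest gap in pair 4. Cdc45, a part of the active helicase, was at -0.75 (SE 0.19, adjusted p = 0.0706).

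GINS, the 4-subunit ring that holds Cdc45 on the helicase, ran from the deepest fall of all members to one of the smallest changes. Gins2 read 77.3, 73.7, 59.1, 53.5 and 51.8 with the shRNA, against 181, 148, 167, 176 and 141 in controls. The groups were far apart, and the level was 2.60-fold lower (log2 change -1.38, SE 0.11, adjusted p = 0.000762). Gins1 read 168, 216, 115, 81.1 and 120 with the shRNA, against 310, 284, 227, 283 and 199 in controls. Sample 2 with the shRNA overlapped control 5, though each pair differed the same way (1.94-fold lower, log2 change -0.96, SE 0.18, adjusted p = 0.0223).

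Gins3 was dimmer, at 34.2, 35.5, 58.4, 49.9 and 42.7 with the shRNA, against 54.2, 41.3, 70.4, 77.4 and 64.0 in controls. Its groups overlapped, since samples 1 and 2 were low in both, but it fell within every pair (-0.47, SE 0.10, adjusted p = 0.0355). Gins4 read 438, 389, 386, 378 and 385 with the shRNA, against 416, 476, 439, 472 and 379 in controls. Pairs 1 and 5 went up slightly and the others down, with a change of -0.14 (SE 0.09, adjusted p = 0.500). Omitting pair 1 or 3 ended the call of Gins1 (highest adjusted p 0.0777) and omitting any pair that of Gins3 (0.0566 to 0.146), whereas Gins2 was called each time (0.00226 to 0.00637). The second Gins2 probe set fell too, by 0.70 on the log2 scale (adjusted p = 0.0158 over all probe sets).

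**Figure D3:**
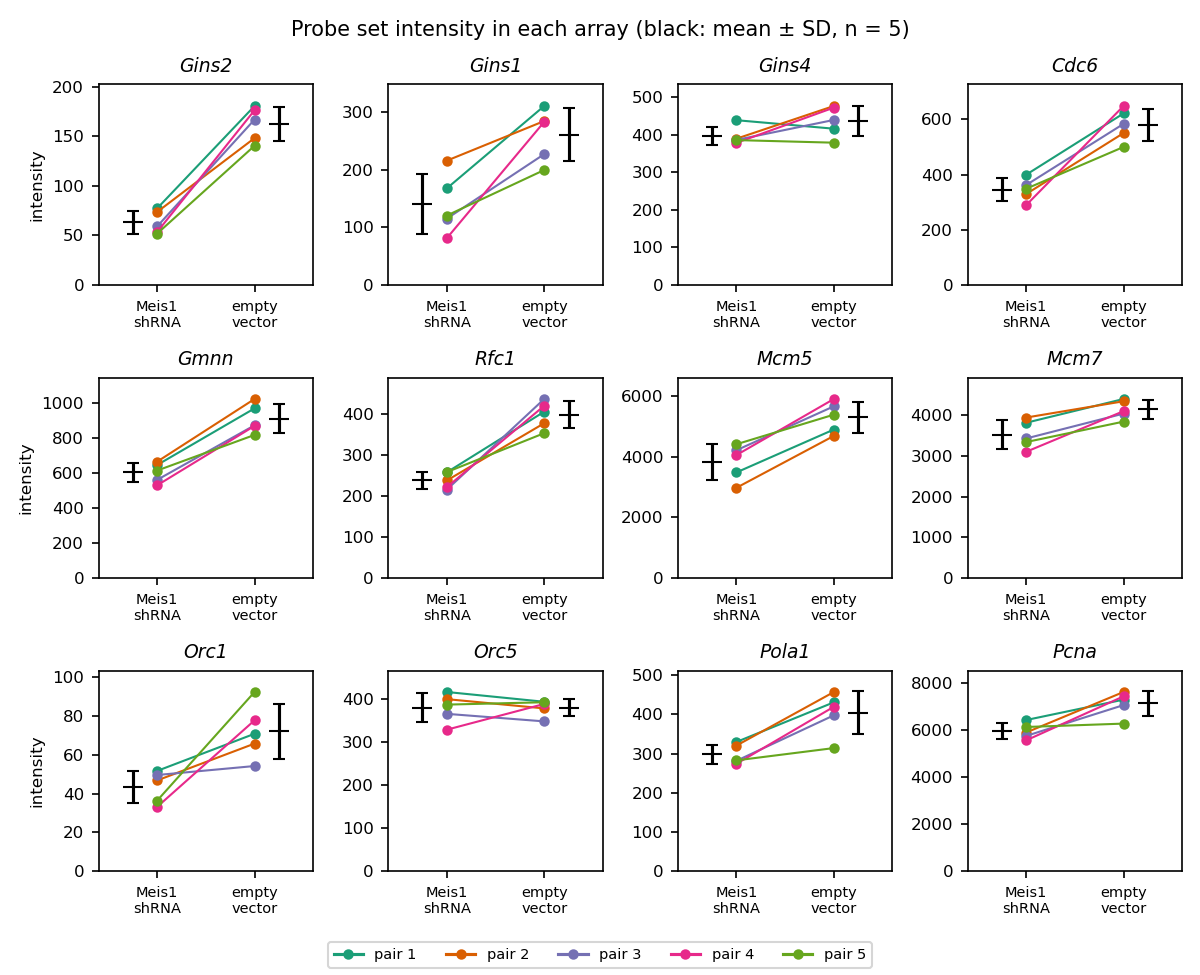
Probe set intensity (linear scale) of 12 members in each array, Meis1 shRNA left and empty vector right, with lines joining the 5 pairs and black marks for the mean ± SD (n = 5). Gins2, Cdc6, Gmnn, Rfc1 and Mcm5 separate without overlap, whereas Gins4 and Orc5 have crossing lines.

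Of the polymerases, 3 of 8 fell, and they were subunits of the polymerase alpha and primase complex, which lays down the primers. Pola1, its catalytic polymerase, read 330, 320, 281, 274 and 283 with the shRNA, against 431, 457, 398, 419 and 314 in controls. Control 5 was the lowest control and lay within the shRNA range (-0.43, SE 0.09, adjusted p = 0.0380). The primase subunits Prim1 and Prim2 were at -0.37 and -0.40 (adjusted p = 0.0489 and 0.0467), while Pola2 was at -0.29 (adjusted p = 0.173). The leading-strand polymerase epsilon had Pole at -0.32 and Pole2 at -0.38, and the lagging-strand polymerase delta had Pold1 at -0.23 (adjusted p 0.104 to 0.183). Pole2, which was not called, thus changed about as much as Prim1, which was. Pold2 was the least changed subunit, at 773, 795, 806, 764 and 852 with the shRNA and 856, 827, 909, 941 and 880 in controls (-0.14, SE 0.08, adjusted p = 0.399). Omitting pair 1, 2, 3 or 4 ended the calls of Pola1 and Prim1 (highest adjusted p 0.152 and 0.176), and omitting any pair that of Prim2 (0.0599 to 0.176).

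Replication factor C, the loader that opens the sliding clamp, had 3 of 5 subunits lower, and all 5 were lower in every pair. Rfc1, the large subunit, read 258, 238, 216, 222 and 259 with the shRNA, against 406, 378, 437, 421 and 354 in controls. The groups were well apart, at 1.67-fold (log2 change -0.74, SE 0.10, adjusted p = 0.00649). Rfc2 read 482, 508, 346, 358 and 385 with the shRNA, against 653, 644, 571, 607 and 517 in controls, also without overlap (-0.54, SE 0.09, adjusted p = 0.0184). Rfc5 fell too, at -0.40 (SE 0.09, adjusted p = 0.0489), and Rfc3 was at -0.41 without passing (adjusted p = 0.0936). Rfc4, the least changed, read 687, 749, 779, 560 and 820 with the shRNA, against 902, 913, 864, 878 and 934 in controls. Its groups did not overlap, but the spread with the shRNA was wide (-0.33, SE 0.10, adjusted p = 0.104). Rfc1 was called whichever pair was omitted, while Rfc2 was lost on omitting pair 1, 3 or 4 (highest adjusted p 0.0849) and Rfc5 on omitting 1, 2, 3 or 4 (highest 0.176).

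The clamp Pcna, the flap nuclease Fen1 and the ligase Lig1, which finish the lagging strand, did not pass. Pcna read 6426, 5895, 5749, 5560 and 6130 with the shRNA, against 7294, 7620, 7062, 7434 and 6274 in controls. Control 5 alone lay among the shRNA arrays (-0.26, SE 0.09, adjusted p = 0.157). Fen1 and Lig1 were at -0.24 and -0.46 (adjusted p = 0.235 and 0.0842). Of the single-strand binding protein, Rpa2 read 389, 414, 413, 339 and 422 with the shRNA, against 549, 559, 583, 622 and 481 in controls. It fell without overlap (-0.50, SE 0.11, adjusted p = 0.0382), and Rpa1 was at -0.34 (adjusted p = 0.0677). Chaf1b, a subunit of the chromatin assembly factor that places histones on new DNA, read 189, 269, 142, 128 and 155 with the shRNA, against 265, 280, 230, 230 and 228 in controls. It fell in each pair, though shRNA sample 2 lay with the controls (-0.53, SE 0.12, adjusted p = 0.0447). Slbp, which binds histone transcripts, was at -0.24 (adjusted p = 0.190). The call of Rpa2 was lost on omitting pair 1, 2, 3 or 4 (highest adjusted p 0.128), that of Chaf1b on omitting 1, 3, 4 or 5 (highest 0.169).

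The other probe sets of the same genes gave a second reading on the same arrays, so they share the RNA and are no independent samples. Of the 94 probe sets of members, 51 were not the brightest of their gene, and 28 of these had a mean log2 level above 5. All 28 had a change below 0, 13 fell with p-values adjusted over all 45037 probe sets, and 20 had a lower log2 change than the brightest. In the same fit 8 of the 43 brightest fell, against 1.96% of all probe sets and 5.55% of those above a log2 level of 5. Cdt1 (-0.51), Fen1 (-0.45), Mcm3 (-0.56), Mcm4 (-0.59) and Pold1 (-0.52), which did not pass in the brightest probe set, each had a further one that did (adjusted p 0.0215 to 0.0452). Of these 5, Fen1, Mcm3, Mcm4 and Pold1 have a brightest probe set of a class that can bind related transcripts, as have Mcm5 and Mcm7. Among probe sets above a log2 level of 5, Rfc1 had the widest spread, with -0.74, -0.81 and -1.47 in its 3 (adjusted p = 0.00905, 0.00425 and 0.0270 over all probe sets). The 23 dimmer ones held 0 calls, with 19 below 0. They include the other probe sets of Gins1 (-0.20), Cdc45 (-0.01), Mcm10 (-0.17 and -0.04), Cdc7 (-0.05), Chaf1b (-0.08) and Pola1 (-0.04), which changed far less than the brightest. With the mean of all probe sets of each gene, Cdc7, Chaf1b and Pola1 did not pass (limma adjusted p = 0.0625, 0.0748 and 0.0999). In that fit 20 members fell, 13 of them among the 16 called in the brightest probe sets, against 3.6% of all genes.

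**Figure D4:**
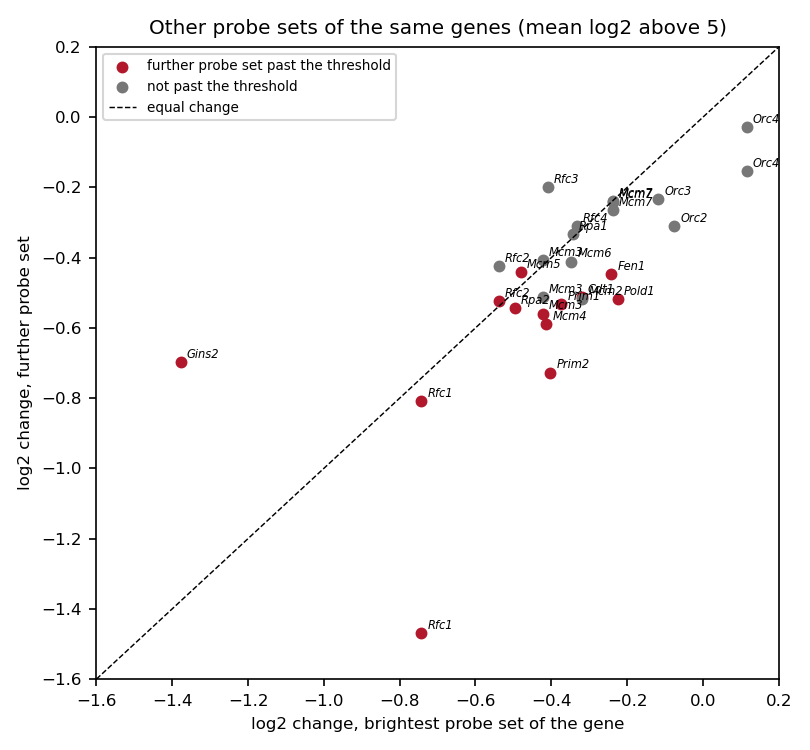
Log2 change (shRNA minus control) of 28 further probe sets of members against that of the brightest probe set of the same gene; the dashed line marks equal change and red points passed an adjusted p of 0.05 over all probe sets. Of the 28 points, 20 lie below the line, and Gins2 and Rfc1 lie farthest from it.

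Of 40 other measured genes of replication, 9 fell and 0 rose, against 2.98% of all genes and 6.61% of bright genes that fell. Their median log2 change was -0.28, and 37 of 40 were below 0, against 49.0% of all genes and 58.5% of bright ones. Dscc1, part of an alternative clamp loader that aids sister chromatid cohesion, had the largest change (-1.10, SE 0.11, adjusted p = 0.00174), with a mean intensity of 93.6 with the shRNA and 197 in controls. Uhrf1, which recruits the maintenance DNA methyltransferase, was at -0.85 (adjusted p = 0.00575) and Wdhd1, which ties polymerase alpha to the helicase, at -0.79 (adjusted p = 0.0156). Esco2, a cohesin acetyltransferase, was at -0.63 (adjusted p = 0.0383), Atad5, which unloads the clamp, at -0.63 (adjusted p = 0.0400) and Dtl, an adaptor for the degradation of Cdt1, at -0.61 (adjusted p = 0.0145). Clspn, Mcm8 and Pold3 were the other 3. By group, 2 of 4 genes of alternative clamp loaders, 3 of 8 of fork protection, 2 of 7 of chromatin replication, 1 of 9 licensing and firing regulators, 1 of 5 accessory polymerase and RPA subunits, and 0 of 7 of Okazaki fragment processing and topoisomerases fell. The count was 3, 2, 7, 3 and 13 without pairs 1, 2, 3, 4 and 5. Omitting pair 1, 2 or 4 ended the calls of Esco2 and Dtl (highest adjusted p 0.158 and 0.0600), omitting 1, 2, 3 or 4 that of Atad5 (highest 0.140) and omitting 2 that of Wdhd1 (0.0645).

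The count of 16 members was 4, 7, 4, 5 and 14 without pairs 1, 2, 3, 4 and 5, and Cdc6, Gmnn, Gins2 and Rfc1 passed in each of these fits. A fit without the pairing called 12 members, 10 of them among the 16, against 2.23% of all genes that fell in it. It lost Mcm5 (adjusted p = 0.0522), Gins3 (0.256), Pola1 (0.0589), Prim2 (0.157), Rfc5 (0.161) and Chaf1b (0.158), and added Orc1 (0.0322) and Mcm10 (0.0364). With pairs 3 to 5 alone, and with pairs 1 and 2 alone, Gins2 was the only member called, while the members' median was -0.37 and -0.30. Of all genes, 0.269% and 0.698% fell there. A measure of RNA integrity moved with the groups as well. The 3 prime over 5 prime ratio, taken on the control probe sets for Gapdh and beta-actin, was 0.37 ± 0.02 on the log2 scale with the shRNA and 0.28 ± 0.06 in controls (SD, n = 5), and higher with the shRNA in all 5 pairs. By pair, the ratio differed by 0.11, 0.06, 0.09, 0.19 and 0.01 in pairs 1 to 5, and the members' median change was -0.33, -0.31, -0.39, -0.60 and -0.22. The widest gap in both stood in pair 4 and the narrowest in pair 5, whose control had a ratio of 0.37. Pairs 1 and 3 went the other way, with the wider ratio gap in pair 1 and the deeper median in pair 3. The ratio moved with the groups, and its part in the members' changes was not tested. With the ratio as a covariate beside the pairs, 0 members passed in limma, 38 of 43 had a change below 0, 5 had an unadjusted p under 0.05, and the median was -0.18. Of all 18193 genes, 2 passed in that fit and 1173 had an unadjusted p under 0.05. The loss of calls was thus not particular to the members. Gins2 was then at -1.18 (adjusted p = 0.198), Rfc1 at -0.53, Gmnn at -0.47 and Cdc6 at -0.45. Some other members moved further, with Gins1 at -0.34, Rpa2 at -0.16, Mcm10 at -0.18 and Lig1 at -0.03, while Cdt1 and Pole2 turned to 0.02. Some moved less, with Orc1 at -0.69, Gins3 at -0.37 and Mcm6 at -0.30. Meis1 itself did not pass in that fit either, at -0.98 (adjusted p = 0.186).

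**Figure D5:**
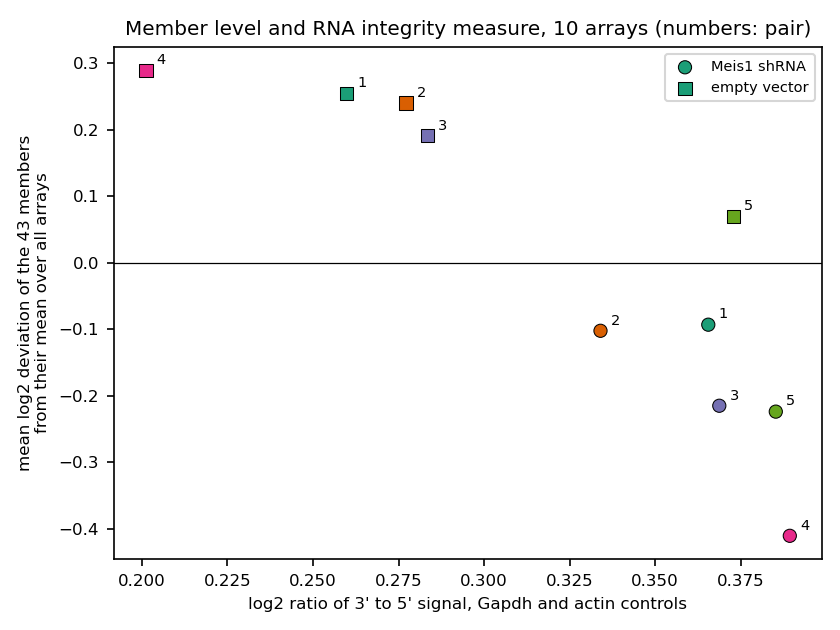
Mean log2 deviation of the 43 members from their means over all 10 arrays, against the log2 ratio of 3 prime to 5 prime control signal, for each array; circles are Meis1 shRNA, squares the empty vector, and numbers and colours the pair. The shRNA arrays lie between -0.41 and -0.09 and the controls between 0.07 and 0.29, with control 5 at the ratio of the shRNA arrays.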

How the data were processed

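Gene expression was measured on Affymetrix arrays in 10 samples, 5 with the Meis1 shRNA and 5 with the empty vector. The deposited values are probe set intensities made with RMA per the submitters' processing notes, with no version named there. They run from 1.30 to 32400 with array medians of 6.24 to 6.70, so they appear to be linear values raised back from RMA's log2 scale. They were log2-transformed here without a pseudocount.

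Of 45101 probe sets, 64 controls were left out. Of the rest, 34945 carried 1 gene symbol in the platform annotation, 932 several and 9160 none. For each of 18193 genes the brightest probe set, by mean log2 level across the 10 arrays, was kept. Groups were compared with limma 3.58.1 in R 4.3.3 (lmFit, eBayes, two-sided), with pair as a fixed block and Benjamini-Hochberg adjustment over all genes at 0.05; changes are shRNA minus control. The labels' treatment protocol states the pairing. Deviations of same-numbered samples correlated at 0.63, 0.49, 0.39, 0.35 and 0.63 over bright genes, and some of other numbers about as highly (shRNA 1 with control 2, 0.61). The labels do not say whether samples came from separate cultures, so p-values measure only the spread among these arrays, possibly technical, and the number of arrays limits precision.

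Values in every sample were given for the 12 members with the largest change past the threshold and of one sign in every pair, and for the most and least changed subunit of 5 complexes. Mcm10 and Pcna were added after their values were seen. Of other replication genes, the 6 largest changes past the threshold were named. Promoters came from RefSeq windows by symbol; no protein sequence was used here. Alternative settings covered the pairing, scaling, filtering, moderation, probe set choice, RNA integrity and left-out pairs. The fit was tested on simulated arrays. The members and lists were chosen with earlier results of these data known.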

Additional observations from a re-analysis of the deposited data

Results flagged for a closer look

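In each group of 5 arrays, the highest or lowest value of a member was screened for a wide gap to the other 4, relative to the range of all 5. Of 86 groups screened, 4 had such a value, and chance alone gives about 1 in 20. In control 5, Rfc5 read 338.8 against 469.9 to 494.9 in the other controls, Lig1 285.6 against 378.9 to 408.6, and Slbp 1471 against 1676 to 1740. These 3 lay in the array whose ratio of 3 prime to 5 prime signal, 0.37, was the highest of the controls, and the part of that ratio in them was not tested. Without pair 5 Rfc5 was at -0.44 (limma adjusted p = 0.0492) and Lig1 at -0.56 (adjusted p = 0.0368). In shRNA sample 1, Gins4 read 438.3 against 378.1 to 389.1 in the other shRNA arrays.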

How the results depend on the processing

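The members' median log2 change stayed below 0 in all 18 alternatives, between -0.42 and -0.18. The count of 16 members lower was 12 in the unpaired fit (no replicate block) and 17 with the pair as a random block, of which 10 and 12 were among the 16. Of all genes, 2.23% and 3.11% fell in the unpaired and the random block fit. Gins3, Prim2, Rfc5 and Chaf1b lost their calls in both (random block adjusted p 0.151, 0.0868, 0.0903 and 0.0887). The member count moved to 8 after quantile normalization, 29 among genes with a mean log2 level above 5 and 33 with trend and robust eBayes. Of the genes tested in these fits, 2.1%, 13.6% and 5.74% fell. The member count was 0 without moderation of the variances (37 at an unadjusted p under 0.05) and 8 with all probe sets tested. It was 0 with the 3 prime over 5 prime ratio added as covariate. With pairs 3 to 5 or pairs 1 and 2, the last added after seeing the data, it was 1 each. From no moderation to pairs 1 and 2, in turn, 0.165%, 2.34%, 0.011%, 0.269% and 0.698% of all genes fell. Leaving out 1 pair gave 4 to 14 members, against 1.09% to 3.61% of all genes. The genes called, 739 in the paired fit (543 lower, 196 higher), moved to 1305, 1497, 40, 2, 58 and 181 with the bright filter, trend and robust eBayes, no moderation, the covariate, pairs 3 to 5 and pairs 1 and 2, and were 243 to 929 with 1 pair left out. After quantile normalization they split 382 lower and 309 higher.

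With the covariate the medians moved to -0.18 for all members, -0.26 for MCM2-7, -0.36 for GINS, -0.16 for the polymerases and -0.19 for the clamp loader. The ORC median was -0.24 with the mean of all probe sets, and turned to 0.0269 with pairs 1 and 2. Of 774 recomputed member results, 583 kept their side of the threshold, 140 lost a call and 51 gained one. Only results of the 16 called members could lose a call, and only those of the 27 not called could gain one. The cause of these changes was not tested.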
